A study of Mus musculus with 48 samples.

Results

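Nnt encodes nicotinamide nucleotide transhydrogenase, and its read-pair counts were followed through all 48 libraries of an ONE-seq study of mouse liver. Nnt is 1 of 52981 genes in the count table of the spike-in experiment and 1 of 55335 gene identifiers in each of the other tables, which hold a NudC and an age experiment. It was selected on its Input counts, which differed strongly between libraries, so its levels and its Enrich to Input ratios are given as a description, without a test. Nnt was abundant in 12 libraries, those of the 1% and 10% NAD-RNA mixtures, and low in the other 36. Other genes that were higher in those mixtures mostly shared a feature of their gene models with it, and genes that were lower there mostly did not.

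The transhydrogenase sits in the inner membrane of mitochondria. It uses the proton gradient to pass a hydride from NADH to NADP, and the NADPH it makes feeds the glutathione and thioredoxin systems that remove peroxides. In mice of the C57BL/6J substrain the gene carries a deletion of several internal exons that C57BL/6N mice do not have, so Nnt is a gene by which sublines of this strain are told apart. The labels give the strain as C57BL/6 and no substrain.

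ONE-seq tags the NAD cap of an RNA with biotin in 1 enzymatic step with ADPRC and the reactant HEEB, captures the tagged RNA on streptavidin and elutes it with the decapping enzyme NudC. Each sample gave an Input library, of RNA before capture, and an Enrich library, of captured RNA, both from poly(A)-selected RNA. In the spike-in experiment, RNA from livers of C57BL/6 mice aged 18 months was mixed with a synthetic RNA of which 0%, 1%, 5% or 10% carried the NAD cap, with 3 replicates for each mixture and library type. In the NudC experiment, livers of mice aged 12 months were processed with NudC (NudC+) or without it (NudC-), and 2 replicates of each library type were used. In the age experiment, livers of young mice aged 2 months and old mice aged 18 months gave 4 replicates each. All mice carried the same strain label, and no transgene or deletion was named for any group. The libraries held between 3694383 and 14953661 counts. All 7 liver markers with a matching gene identifier, albumin among them, were above 3 counts in every group of Input libraries. Their summed level per Input library lay between 61940 and 119611 cpm (counts per 1000000 counts after TMM scaling), and that of 12 markers of other liver cell types between 237 and 488 cpm.

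Nnt (ENSMUSG00000025453) lies on the minus strand at chr13:119335448-119408997 of the mouse genome build GRCm38. GENCODE M21 gives it 5 transcripts with 7037 exon bases in all. Its longest coding transcript, Nnt-202, has 17 exons, 3464 bases and 2505 coding bases. The reference genome is that of C57BL/6J, so the exons lost in that substrain are not part of the annotated transcripts. The missing exons belong between exon 7 (chr13:119381676-119381863) and exon 8 (chr13:119374629-119374774) of Nnt-202, which lie 6901 bases apart in this build. The first sequence is the start of the coding region in exon 2 (chr13:119404552-119404702, minus strand), shown because both gene models of the locus hold it, with the start codon in capitals. The second is the junction itself, shown because it is where the annotated transcript passes over the missing exons, with the last 60 bases of exon 7 (chr13:119381676-119381735) in lower case and the first 60 bases of exon 8 (chr13:119374715-119374774) in capitals.
Nnt coding start: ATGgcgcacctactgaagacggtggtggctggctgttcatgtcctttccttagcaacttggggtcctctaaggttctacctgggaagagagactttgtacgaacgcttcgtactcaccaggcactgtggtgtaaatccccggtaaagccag
Nnt junction of exons 7 and 8: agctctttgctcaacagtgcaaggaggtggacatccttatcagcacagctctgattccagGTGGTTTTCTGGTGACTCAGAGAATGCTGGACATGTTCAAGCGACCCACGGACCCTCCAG

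The tables do not count the same gene models at this locus. The NudC and age tables list a second gene identifier that is also named Nnt, ENSMUSG00000116207 (chr13:119335528-119408952, minus strand), and the spike-in table does not. This second model has 1 transcript, Nnt-206, of 3339 exon bases, and all 3339 also belong to the first model, where they make up 47.4% of the exon bases. The 2505 coding bases of Nnt-202 occur unbroken in Nnt-206. Of Nnt-202, only 125 bases at its ends lie outside the second model. The remaining bases particular to the first model are 2645 bases of retained introns and 928 bases of the last exon of the shorter transcript Nnt-203. The authors counted with featureCounts, which by default leaves a read pair unassigned when it matches exons of 2 genes. The second model had 0 counts in each of the 24 libraries of the NudC and age experiments.

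**Figure D1:**
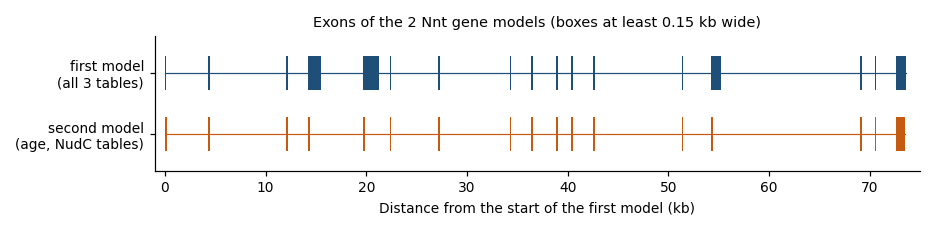
Exons of the first Nnt model (blue, top) and of the second (orange, bottom), by distance in kb from the start of the first. Every exon of the second model lies inside an exon of the first, and the 3 wide boxes near 15, 20 and 55 kb are the longer exons that belong to the first model alone for most of their length.

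In the Input libraries of the spike-in experiment, Nnt took 2 kinds of level. At 0% NAD-RNA it had 12, 11 and 5 counts, and at 5% NAD-RNA 5, 3 and 4 counts. At 1% NAD-RNA it had 985, 752 and 860 counts, and at 10% NAD-RNA 1017, 1008 and 1057 counts. All 6 libraries of the 1% and 10% mixtures were far above the 6 libraries of the 0% and 5% mixtures, and the level did not follow the share of NAD-capped spike-in RNA. The Input level was 0.916 ± 0.323 cpm (SD, n = 3) at 0%, 103 ± 3.42 cpm at 1%, 0.435 ± 0.0782 cpm at 5% and 113 ± 7.83 cpm at 10%. The level at 1% was 112-fold that at 0%, with an exact 95% interval of 76.4 to 167 that covers counting error only. The level at 10% was 260-fold that at 5%, with an interval of 147 to 498. Per length, Nnt at 1% and 10% lay above 87.8% and 88.7% of the genes with counts in those libraries, and at 0% and 5% above 26.0% and 16.4%.

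The order of the Input levels was 10%, 1%, 0% and 5%. The ranges of the 10% and 1% libraries overlapped, with means 1.10-fold apart. The ranges of the 0% and 5% libraries did not overlap, yet the ratio of 2.1 between them rested on 28 against 12 counts and had a counting interval of 1.05 to 4.58. In the lowest library, replicate 2 at 5%, the level of 0.347 cpm equalled the value of 3 counts.

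The Enrich libraries of the spike-in experiment showed the same split. Nnt had 5, 5 and 5 counts at 0%, 139, 314 and 461 at 1%, 7, 3 and 4 at 5%, and 299, 397 and 487 at 10%. The mean Enrich levels were 0.656 ± 0.114, 60.3 ± 25.5, 0.568 ± 0.243 and 67.4 ± 7.39 cpm in that order (SD, n = 3). Those at 1% and 10% overlapped, as did those at 0% and 5%.

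In the other 2 experiments, no library had more than 19 Nnt counts. The NudC- Input libraries had 7 and 14 counts and the NudC+ Input libraries 8 and 10, which gave 1.10 ± 0.378 and 0.959 ± 0.0179 cpm (SD, n = 2). The NudC- Enrich libraries had 2 and 0 counts and the NudC+ Enrich libraries 0 and 4. A count of 0 allows a level of up to 0.477 cpm in the NudC- library and 0.442 cpm in the NudC+ library, taken as 3 counts. All 4 groups of this experiment were at or near the limit of their depth, and both pairs of groups overlapped.

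In the age experiment, the young Input libraries had 7, 1, 7 and 6 Nnt counts, and the old Input libraries 12, 15, 12 and 7. The levels were 0.492 ± 0.273 cpm in young and 0.792 ± 0.193 cpm in old Input (SD, n = 4), and the ranges overlapped. The young Enrich libraries had 16, 8, 17 and 10 counts, or 1.31 ± 0.434 cpm, and the old Enrich libraries 19, 12, 13 and 8 counts, or 1.07 ± 0.256 cpm. These ranges overlapped as well. All 24 libraries in which the second Nnt model was counted were therefore at the level of the 0% and 5% mixtures. Whether the livers of the NudC and age experiments carried Nnt RNA cannot be told from these counts, since nearly all of the spliced transcript is shared by both models there.

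**Figure D2:**
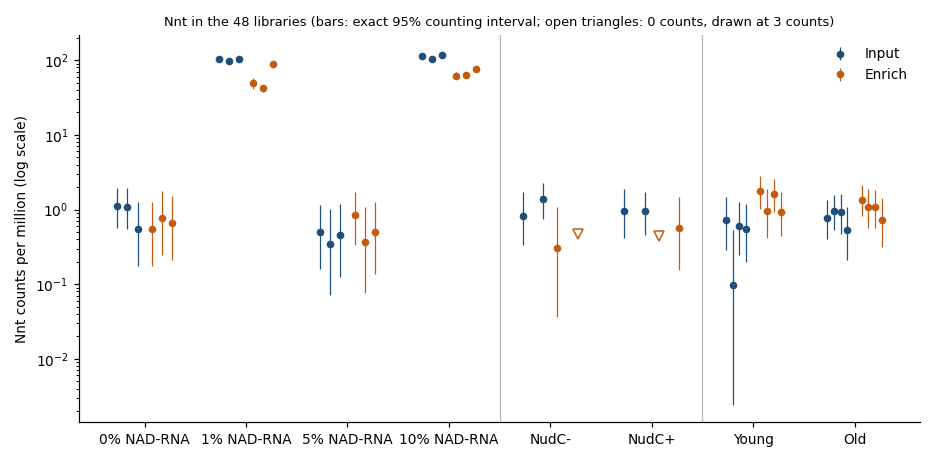
Nnt in cpm (log axis) in each of the 48 libraries, Input in blue and Enrich in orange, with exact 95% counting intervals as bars. The 12 libraries of the 1% and 10% mixtures lie between 42.2 and 119 cpm, and the other 36 at or below 1.76 cpm; open triangles mark 2 libraries with 0 counts, drawn at the value of 3 counts.

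The 8 genes whose pattern was most like that of Nnt were found by the root mean square difference of centered log2 cpm over the 12 Input libraries of the mixtures, among the other 14848 genes tested. They were Sept2 (0.497), Rnaset2a (0.502), Chkb (0.657), Myl12b (0.744), Chtf8 (0.786), Rnaset2b (0.864), Commd5 (1.09) and Wdr89 (1.10), where the median over all genes was 3.48. Sept2 encodes a septin of the cytoskeleton, Chkb a choline kinase and Myl12b a regulatory light chain of myosin. Rnaset2a and Rnaset2b are near-identical copies of the ribonuclease T2 gene, so reads may be split between them and their values are uncertain. With values scaled to unit SD, 4 of these 8 genes stayed among the nearest 8, and over all 24 Input libraries, centered within each table, 6 did.

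Nnt lies on chromosome 13, and these genes on chromosomes 1, 8, 12, 15 and 17. For 7 of the 8, a gene identifier that only the NudC and age tables list overlapped the exons on the same strand. It covered 41.8% of the exon bases of Sept2, 27.2% of Rnaset2a, 50.7% of Chkb, 26.7% of Myl12b, 91.8% of Chtf8, 20.4% of Rnaset2b and 66.8% of Commd5. Wdr89 had no such overlap in this annotation. The overlapping identifiers of 6 of these 7 genes had 0 counts in all 24 libraries that list them, and that of Myl12b had 8 counts in the age and 4 in the NudC table. Over all tested genes, 200 of 14849 (1.35%) had exon bases shared in this way.

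Sept2 went from 0.692 ± 0.284 cpm at 0% to 62.7 ± 1.40 cpm at 1% NAD-RNA (SD, n = 3), and it was at 0.375 ± 0.214 cpm in old Input (n = 4). Chtf8, a factor of a clamp loader in replication, went from 0.223 ± 0.207 to 37.4 ± 1.61 cpm and was at 0.368 ± 0.222 cpm in old Input. In both genes, as in Nnt, the old mice of the age experiment, which are of the same labelled age as those of the spike-in experiment, had the level of the 0% and 5% mixtures. The tables were scaled separately, so these levels are compared across tables only in their order of magnitude.

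**Figure D3:**
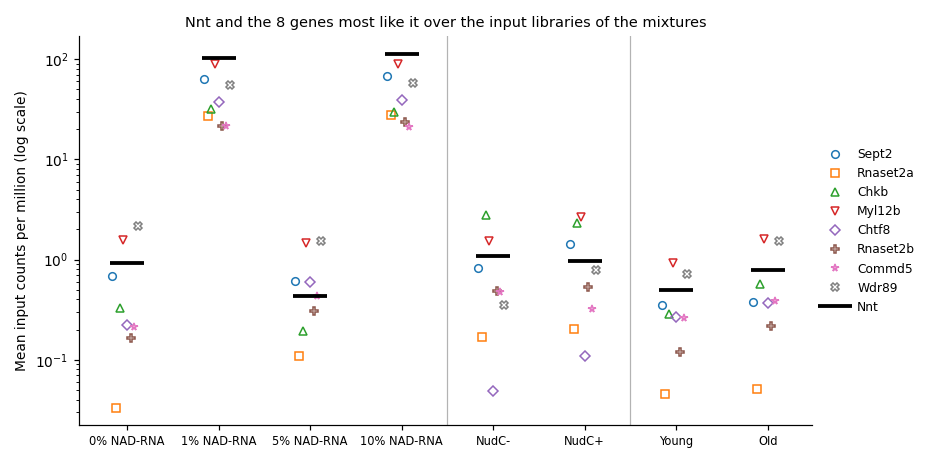
Mean Input level in cpm (log axis) of Nnt (black bars) and of the 8 genes most like it over the 12 Input libraries of the mixtures, in the 4 mixtures and in the groups of the NudC and age experiments, which were scaled separately. Nnt is the highest of the 9 genes at 1% and 10% NAD-RNA, with 103 and 113 cpm, where every gene is far above its level elsewhere, and the highest mean elsewhere is 2.78 cpm, of Chkb in NudC- Input.

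Across all genes, the Input libraries of the mixtures were compared with the edgeR quasi-likelihood test and Benjamini-Hochberg adjustment. From 0% to 1% NAD-RNA, 40 genes were higher and 36 lower, that is 0.269% and 0.242% of genes and together 76 of 14849 (0.512%). From 0% to 10%, from 5% to 1% and from 5% to 10%, 74 (0.498%), 73 (0.492%) and 64 (0.431%) genes passed. Between 0% and 5%, and between 1% and 10%, 0 genes passed with edgeR and 0 with DESeq2, and 97 and 79 genes had an unadjusted p under 0.05 with edgeR. Nnt was selected on these values, so it is left out of the counts that follow. Of the other 39 genes higher at 1% than at 0%, 23 (59.0%) shared exon bases with an identifier listed only in the other tables, as did 1 of the 36 lower genes (2.78%), against 199 (1.34%) of all other genes tested. The 8 genes named above were picked for their likeness to Nnt in the same libraries, and without them 16 of 31 higher genes (51.6%) did so. Among the 13 other genes with 40% or more of their exon bases shared, 9 were higher, and the median difference was 3.01 on the log2 scale. Without the 8 named genes, 5 of 9 were higher, with a median of 1.78. The median was 0.94 for the 25 genes with 20% to 40% shared, which still include Rnaset2a, Myl12b and Rnaset2b of the named genes. It was 0.08 for the 161 genes with under 20% shared, and 0.02 for the 14649 genes with none. From 0% to 5% the median of the 13 genes was -0.03. The calls rested on all 3 replicates, since 37, 29 and 50 genes passed from 0% to 1% without replicates 1, 2 and 3. A fit of these 2 groups alone called 569 genes.

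**Figure D4:**
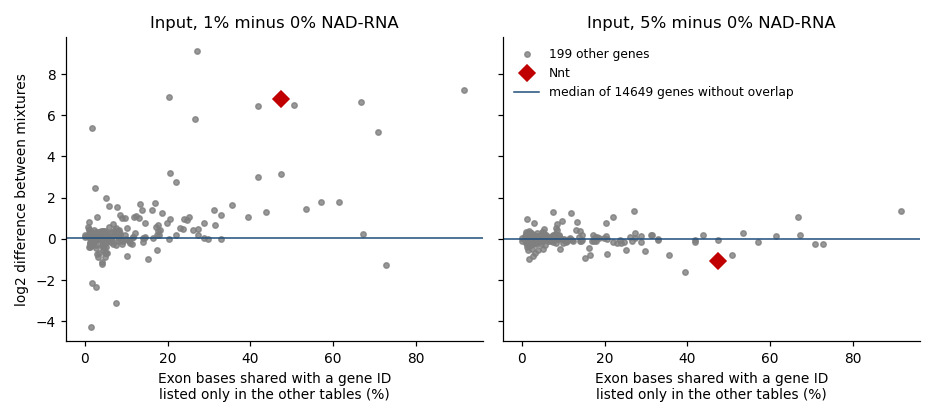
Log2 difference of the Input level from 0% to 1% NAD-RNA (left) and from 0% to 5% (right) against the percentage of exon bases shared with a gene identifier that only the other tables list, for 200 genes; the line is the median of the 14649 genes without such bases. Nnt (red diamond) is at 47.4% and 6.77 on the left and -1.05 on the right, and genes far above the line appear on the left only.

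The genes that differed between the mixtures were then set beside the other tables. Of the 30 genes other than Nnt that were higher in all 4 comparisons, 29 had an old Input level closer to that of the 0% and 5% mixtures than to that of the 1% and 10% mixtures, with median log2 distances of 0.20 and 2.99. Of the 22 genes lower in all 4 comparisons, 21 did so, with median distances of 0.13 and 2.05. Over all 14849 genes the share was 59.9%, with median distances of 0.15 and 0.20. In the same order, young Input was closer to the 0% and 5% mixtures for 29 and 19 genes, NudC- Input for 26 and 18, and NudC+ Input for 27 and 18, against 48.6%, 58.1% and 57.3% of all genes. These genes were chosen on the mixtures alone, and each table was scaled by itself. Of the 30 higher genes, 21 shared exon bases with an identifier listed only in the NudC and age tables, as did 1 of the 22 lower genes. Pairs matching both identifiers would by default be left unassigned there. For the genes that share exon bases in this way, the other tables are therefore not a separate measurement of the RNA level. The remaining higher and lower genes shared none in this annotation, so this limit was not shown for them. The labels name no batch, annotation release or counting run for any mixture. The level of Nnt RNA in these livers, the mice that gave them and the gene models with which each mixture was counted cannot be told apart from the tables alone. Input libraries of equal replicate number deviated together across mixtures in every pair, with correlations over 8297 genes of 0.269 to 0.589.

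In the 1% and 10% mixtures, where it had 139 counts or more in every library, Nnt was lower in Enrich than in Input. The log2 ratio of Enrich to Input, with a prior count of 2, was -1.09, -1.22 and -0.22 in the 3 pairs at 1% NAD-RNA and -0.89, -0.70 and -0.65 in the 3 pairs at 10%. The means were -0.84 ± 0.54 and -0.75 ± 0.13 (SD, n = 3), which is a ratio of 0.557 and 0.595. All 6 ratios were below 0, and the pairs of the 2 mixtures overlapped. The means at 1% and 10% lay above 18.8% and 19.9% of the tested genes, whose medians were -0.08 and -0.07. Replicate 3 at 1% stood apart, with a ratio of 0.858 (exact 95% counting interval 0.765 to 0.962) against 0.470 (0.389 to 0.560) and 0.428 (0.373 to 0.488). In that pair, the log2 ratio of RNA of the mitochondrial genome was also higher, at -0.07 against -2.59 and -2.02. In the 3 pairs at 10%, the mitochondrial ratio was -1.39, -0.82 and -1.88, which was not the order of the Nnt ratios. The part of mitochondrial RNA in the Nnt ratio was not tested. Without replicate 3, the mean Nnt log2 ratio at 1% was -1.16.

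In the other arms, the ratio rested on few counts. It was -0.33 ± 0.49 at 0% and 0.22 ± 0.28 at 5% NAD-RNA (SD, n = 3), from at most 12 counts in any library, and the pairs at 0% lay on both sides of 0. It was -1.83 ± 1.22 for NudC- and -1.41 ± 1.24 for NudC+ (n = 2), with 0 Enrich counts in 1 pair of each. With a prior count of 0.5 these means were -2.90 and -2.36, so the prior sets much of their size. In the age experiment, it was 1.24 ± 0.61 in young and 0.36 ± 0.24 in old liver (n = 4). All 8 pairs were above 0, and the ranges of 0.61 to 2.07 and 0.18 to 0.70 overlapped. The highest, young replicate 2, came from 1 Input and 8 Enrich counts, with an exact interval for the ratio of 1.32 to 437. In the tables that list both models, pairs matching both would be left unassigned by default, so these counts need not come from the same part of the gene as those of the 1% and 10% mixtures. Scaling by library size alone turned the mean at 5% to -0.09 and moved that of old liver to 0.04.

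**Figure D5:**
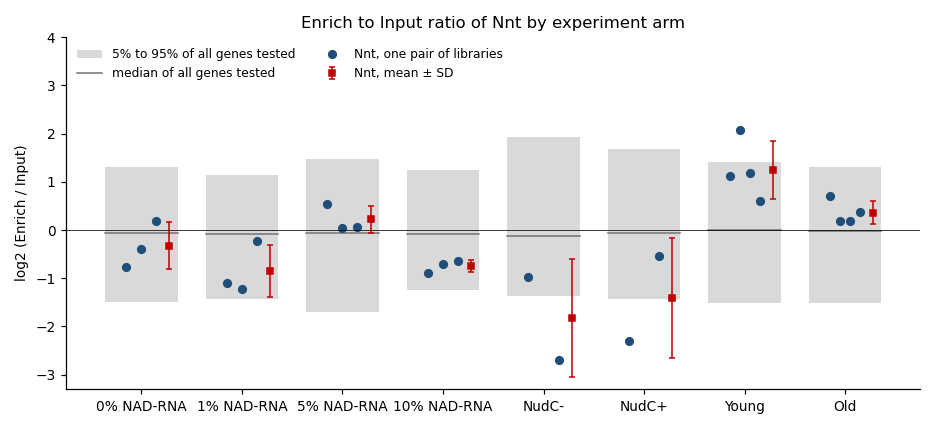
Log2 ratio of Enrich to Input of Nnt in each pair of libraries (blue points) with the mean ± SD (red squares; n = 3 for each mixture, 2 for NudC- and NudC+, and 4 for young and old liver), over the central range from 5% to 95% of all tested genes (gray). The pairs at 1% and 10% NAD-RNA lie between -1.22 and -0.22, and the pairs of the age experiment between 0.18 and 2.07.

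Other sources of NADPH in liver were measured beside Nnt in the same Input libraries. The list had 16 genes, 14 of which were tested in the spike-in table, and none of them shares exon bases with an identifier listed only in the other tables. The highest per length were Aldh1l1, a folate dehydrogenase, at 280 cpm per kb, Glud1, glutamate dehydrogenase, at 210, Idh1, the cytosolic isocitrate dehydrogenase, at 187, Nadk, the NAD kinase that makes NADP, at 83.1, and Me1, the cytosolic malic enzyme, at 83.1. Nnt stood at 14.6 and 16.1 cpm per kb at 1% and 10% NAD-RNA, close to the 15.8 of Pgd, an enzyme of the pentose phosphate pathway, and at 0.130 and 0.0619 at 0% and 5%. The length of Nnt includes its retained introns, which lowers its value per kb against that of its spliced transcript. In the 6 comparisons between mixtures, 0 of the 14 genes passed the edgeR test, where between 0% and 0.512% of all genes did, so the count says little about the list. Aldh1l1 was at 1262 ± 121 cpm at 0% and 1252 ± 45.4 cpm at 1% (SD, n = 3).

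Around Nnt, 9 genes within 1 Mb had a mean of at least 10 Input counts in a table, and 8 were tested in the mixtures. They were Mrps30 on one side and Paip1, 4833420G17Rik, Tmem267, Hmgcs1, Nim1k, Zfp131 and Gm31544 on the other, with Gm9752 untested. The nearest was Paip1, 19604 bases away, which encodes a partner of the poly(A)-binding protein. It had 28.9, 32.2 and 27.7 cpm at 0% and 48.4, 43.7 and 52.1 cpm at 1%, without overlap. Its log2 difference was 0.70 (SE 0.17) with an adjusted p of 0.084 by edgeR, which missed the threshold, and DESeq2 gave 0.68 with an adjusted p of 0.0084. It also passed in an edgeR fit of only these 2 groups, at 0.66 with an adjusted p of 0.0020. Paip1 had 30.1, 29.0 and 37.3 cpm at 5% and 41.2, 41.4 and 42.3 cpm at 10%. Each of its 1% and 10% libraries was thus above each of its 0% and 5% libraries, a much smaller split than that of Nnt. Paip1 shared no exon bases with an identifier listed only in the other tables. The reason for its split was not tested. In the fit of all groups, 0 of the 8 genes passed in any of the 6 comparisons, where at most 0.512% of all genes did. Hmgcs1, an enzyme of the mevalonate pathway, was at 164 ± 14.5 cpm at 0% and 183 ± 14.3 cpm at 1%.

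Genes by which C57BL/6 sublines have been told apart formed a second list of 7: Wdfy1, Ide, Nlrp12, Cyfip2, Fgfbp3, Entpd4 and Crb1. Crb1 had 0 counts in every Input library and Entpd4 at most 4, so neither was tested. The other 5 did not pass in any comparison of the mixtures, where at most 0.512% of all genes did, so the count says little about the list. Fgfbp3 had 2 to 6 counts in each Input library of the mixtures. Sublines can differ in sequence without a change in RNA level, so these levels do not tell which subline the mice were. Wdfy1, a protein of endosomes, was at 24.8 ± 2.54, 25.5 ± 0.623, 21.8 ± 5.27 and 24.4 ± 2.54 cpm at 0%, 1%, 5% and 10% NAD-RNA (SD, n = 3), so the mixtures overlapped. The ages differed. Wdfy1 had 3.38, 3.0, 4.26 and 4.63 cpm in young Input and 20.8, 21.3, 21.2 and 23.1 cpm in old Input. Every old library was above every young one, and the difference was 2.49 on the log2 scale (SE 0.15, adjusted p = 5.5e-11, edgeR). The labels give no substrain, so age cannot be told apart from subline or cohort in this experiment. This holds also for the genes compared between the ages below. In the NudC experiment, Wdfy1 was at 35.2 ± 0.367 and 35.1 ± 4.29 cpm (n = 2) in NudC- and NudC+ Input. Among the 5 genes tested between the ages, Wdfy1 was the 1 that passed, where 24.4% of all 15636 genes did, and Nlrp12, Ide, Cyfip2 and Fgfbp3 had adjusted p-values of 0.056 to 0.72.

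Between the ages, 5 of the 15 NADPH sources tested passed, 4 higher and 1 lower in old Input, where 12.5% of all genes were higher and 12% lower. Me1 had 179, 158, 168 and 167 cpm in young and 330, 288, 369 and 303 cpm in old livers, a difference of 0.94 on the log2 scale (SE 0.11, adjusted p = 6.6e-07, edgeR). Pgd had 35.9, 50.9, 47.9 and 45.7 cpm in young and 95, 82.2, 115 and 90.2 cpm in old livers, a difference of 1.08 (SE 0.13, adjusted p = 1.3e-06). For both, every old library was above every young one. Nadk rose by 0.54 (SE 0.08) and Idh2, the isocitrate dehydrogenase that makes NADPH in mitochondria, by 0.49 (SE 0.11). H6pd, which makes NADPH in the endoplasmic reticulum, fell by 0.42 (SE 0.12, adjusted p = 0.011), with an adjusted p of 0.055 without replicate 2. The median over the 15 genes was -0.10, against 0.01 over all genes.

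Of 9 antioxidant genes of mitochondria, 1 rose and 1 fell in old Input, close to the 12.5% and 12% of all genes. Gpx4, which reduces lipid peroxides, rose by 0.58 (SE 0.12, adjusted p = 0.0014, edgeR), from 46.1 to 64.7 cpm in young to 79.3 to 92.2 cpm in old livers. Prdx5, a peroxiredoxin, fell by 0.32 (SE 0.12, adjusted p = 0.046), with an adjusted p of 0.093, 0.17 and 0.12 without replicates 1, 3 and 4. Sod2, Gpx1, Prdx3, Txn2, Txnrd2, Gsr and Glrx2 did not pass. The median difference was -0.05.

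In NAD metabolism, 4 of 21 tested genes were lower in old Input and 0 higher, where 12% of all genes were lower and 12.5% higher. Tdo2, which opens the route from tryptophan to NAD, went from 2083, 1858, 1772 and 1598 cpm to 848, 912, 691 and 887 cpm, and fell by 1.13 on the log2 scale (SE 0.13, adjusted p = 8.0e-07, edgeR). Nmrk1, the nicotinamide riboside kinase, fell by 0.90 (SE 0.21), and Nadsyn1, the NAD synthetase, fell by 0.48 (SE 0.12), with an adjusted p of 0.069 without replicate 3. Acmsd, which draws an intermediate away from NAD synthesis, was the other gene that passed, at -0.70 (SE 0.23). Of 6 genes whose products remove NAD or other caps, Xrn2, a nuclear exonuclease, fell by 0.45 (SE 0.13, adjusted p = 0.016), with adjusted p-values of 0.051 to 0.082 without replicates 1, 2 or 4. Among the neighbours of Nnt, 4833420G17Rik fell by 0.52 (SE 0.14), with an adjusted p of 0.078 without replicate 3. Of the 7 liver markers, 5 were lower in old Input, with a summed level of 61940 to 73248 cpm against 99660 to 119611 cpm in young. Of the 12 markers of other cells, Ptprc and Col1a1 were higher and Krt19 and Epcam lower, and their summed levels overlapped. The part of these markers in the gene differences was not tested, and fewer cells of a type cannot be told apart from less RNA per cell in bulk tissue. Scaling by library size alone moved the median of all genes to 0.20 and gave 3476 higher and 1006 lower genes in place of 1949 and 1872. Under that scaling H6pd, Prdx5, Nadsyn1, Xrn2 and 4833420G17Rik had adjusted p-values of 0.15, 0.39, 0.082, 0.15 and 0.099.

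None of the NADPH sources tested was a NAD-RNA, defined as at least 2-fold (1 on the log2 scale) higher in Enrich than in Input with an adjusted p under 0.05 by edgeR. Their median log2 ratio of Enrich to Input lay between -0.52 and -0.07 over the 8 arms. NAD-RNAs made up 9.53%, 7.15%, 12.7% and 8.37% of all genes at 0%, 1%, 5% and 10% NAD-RNA, 9.35% for NudC-, 7.68% for NudC+, 13% in young and 11.5% in old liver. Only 14 to 16 NADPH sources were tested in an arm, so the absence of calls says little about the list. With the replicate number as a block, the NudC+ arm had 2097 NAD-RNAs in place of 1330. Of the antioxidant genes of mitochondria, 3 or 4 of 9 were called in each arm, and the list's medians were 0.66 to 0.91. Gpx1, the main glutathione peroxidase, was higher in Enrich by 2.46 on the log2 scale in young liver (SE 0.13, adjusted p = 1.6e-12), by 2.34 in old liver (SE 0.13), and by 2.53 in the NudC- arm (SE 0.35). Sod2, the mitochondrial superoxide dismutase, was higher by 1.37 (SE 0.10) in young and 1.39 (SE 0.10) in old liver, and Gpx4 by 1.27 (SE 0.12) and 1.12 (SE 0.12). In the arm eluted without NudC, Sod2 and Gpx4 were above Input as well, by 1.65 (SE 0.28) and 2.01 (SE 0.32). At 1% NAD-RNA the calls depended on single replicates. There, 61 genes were NAD-RNAs without replicate 1, 2 without replicate 2 and 1609 without replicate 3, in place of 1062, and Gpx1, Gpx4 and Sod2 had adjusted p-values of 0.051, 0.072 and 0.068 without replicate 1, 0.11, 0.16 and 0.13 without replicate 2, and 0.10, 0.11 and 0.10 in a fit of only the groups compared. Scaling by library size alone moved the median ratio of all genes from near 0 to between -0.82 and -0.38 in the 8 arms.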

How the data were processed

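Per the labels and the study's methods, reads of poly(A)-selected libraries were trimmed, aligned to GRCm38 with STAR and counted per gene with featureCounts using GENCODE annotation, and the authors deposited whole-number counts of read pairs per gene without normalization, in 1 table per experiment. From these counts, cpm were computed after TMM scaling, and Enrich to Input ratios per pair of the same replicate number with a prior count of 2. For each table, 1 edgeR (4.0.16, R 4.3.3) quasi-likelihood model held all groups, after removal of genes with 0 counts in over 25% of libraries. Adjusted p-values (Benjamini-Hochberg, threshold 0.05) cover all genes tested. DESeq2 (1.42.0), other scalings and filters, the replicate block and leaving out each replicate were alternatives. Python (3.11) computed the rest. On simulated data for the comparison of 1% with 0% NAD-RNA, 142 of 200 changed genes were recovered with 5 false calls among 14724 genes. For old against young Input, 174 of 200 were recovered with 8 false calls among 15505 genes. For NudC+ Enrich against Input, only 74 of 200 were recovered, with 6 false calls among 16890 genes.

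Gene positions, lengths and overlaps, on either strand, came from GENCODE M21, in which 181 of 55335 identifiers of the NudC and age tables had no match. The sequences came from the transcript sequences of GENCODE M21. The annotation named in the study's methods is another release (M23). No promoter sequence of Nnt was used here. Median depths were 7822820 (spike-in), 7815700 (NudC) and 11395000 (age) counts. Intervals at 95% (Poisson, Clopper-Pearson) and the floor of 3 counts cover counting error only. Named genes were Nnt, the 8 nearest to it, its neighbours, the subline list and, per list and comparison, up to 3 members in each direction with the smallest adjusted p. The members and lists were chosen with earlier results of these data known, and the overlap of gene models was examined after the counts were seen. The study's methods describe biological replicates of livers for the spike-in and age experiments. For the NudC experiment the sources used here do not say what the replicates are, and its p-values measure the spread between these samples, which may be technical. Same-numbered Input libraries of the mixtures deviated together in every pair (correlations from 0.269), and those of young and old mice did not (from 0.0406 to 0.106). Replicates of a group differed beyond sampling noise (chi-square per gene at least 4.65), so none were merged. The 4 count columns of the NudC table that matched no sample's label were not used.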

Additional observations from a re-analysis of the deposited data

Results flagged for a closer look

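In the age experiment, 36 groups of 4 values of Nnt and other named genes were checked for a library far from the others, and chance marks about 1 such group in 20. H6pd in old Input replicate 1 stood at 289 cpm, apart from the other 3 old libraries. Entpd4 in old Input replicate 4 stood at 0.301 cpm, from 4 counts, where the other 3 libraries had 0.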

How the results depend on the processing

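Over the alternatives run, 74 Nnt levels and 53 Nnt ratios stayed within the spread between replicates. Scaling by library size alone moved the Nnt level to 118 cpm (1% Input), 0.524 (5% Input), 129 (10% Input), 55.5 (10% Enrich) and 1.18 (NudC+ Input), and its log2 ratio to -0.0897 (5%, turned), -1.22 (10%) and 0.0385 (old). DESeq2 size factors gave 0.922 cpm for NudC+ Input. With unit SD, 4 of the 8 genes most like Nnt stayed. Library size alone left 585, 283, 745 and 411 NAD-RNAs at 0%, 1%, 5% and 10%, 803 and 621 for NudC- and NudC+, and 885 and 714 in young and old. It turned the log2 ratio of Idh1 to -0.0436 at 1% and -0.0070 at 10%, of Mrps30 to -0.0445 at 1% and of Dxo to -0.0754 in old liver. For Input 1% against 0%, 10% against 0%, 1% against 5% and 10% against 5%, DESeq2 called 135, 122, 123 and 131 genes, genes with at least 1 count gave 152, 147, 146 and 154, and fits of only the groups compared gave 569, 594, 637 and 582. The last left 1 NAD-RNA at 1%. With at least 1 count, 3 genes differed in ratio between the NudC arms and 4 between the ages, in place of 0. Leaving out each replicate gave 29 to 50, 29 to 44, 28 to 39 and 29 to 42 genes in the 4 Input comparisons, 589 to 1810 NAD-RNAs at 0% (589 without replicate 2 and 939 without replicate 3), 2 to 1609 at 1% and 828 to 1301 at 10% (828 without replicate 1). The causes were not tested. For the NudC arms, leaving out a replicate gave Nnt log2 ratios of -2.69 and -0.97 (NudC-) and -0.54 and -2.29 (NudC+), and counts of called genes were not run, since no residual degrees of freedom would remain.

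The replicate block gave 90, 90, 81 and 82 genes in these Input comparisons, 2097 NAD-RNAs for NudC+ and 59 genes between the NudC arms, and moved no other count of calls by over 1.5 times. For young against old Input, whose numbers did not pair the samples, it gave 4191 genes in place of 3821. Depth limits Nnt outside the 1% and 10% mixtures, where no library had over 19 counts.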
